A study of Mus musculus with 16 samples.

Results

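The macrophage and myeloid genes of mouse skeletal muscle are 32 genes that mark macrophages and other myeloid cells or serve their phagocytic work. They are a list of macrophage and myeloid markers taken by name, and the list was made with earlier results of these data known. Of the 32, 31 matched a probe by symbol and all 31 passed the filter on dim probes, out of 28972 genes tested. Clec7a, a receptor for fungal glucans, had no matched probe and is not analysed here. Muscle RNA from male mice was hybridised to 16 one-colour Agilent arrays, 4 in each of 4 groups that the series design calls biological replicates. CB1KO mice carried loxP-flanked alleles of Cnr1, the gene of the cannabinoid receptor CB1, and a Cre driven by the ACTA1 promoter, which is active in skeletal muscle fibres. WT mice were their littermates, labelled Skm-CB1R+/+, although the growth protocol writes both genotypes as flox/flox and Cre-positive. The promoter does not target macrophages, so myeloid cells of the CB1KO muscle would still carry the receptor gene. The groups were CB1KO_HFHS and WT_HFHS, fed a high fat-high sugar diet with 49.2% of its kJ as fat and 32.2% as sugar, and CB1KO_SD and WT_SD, fed a standard diet with 16.7% and 12.4%. Feeding lasted 15 weeks and the mice were 21 to 23 weeks old. The protocol also speaks of randomisation to vehicle or S961, and the labels do not say which of these any animal received, or which muscle was taken. The diet tag of the CB1KO_SD and WT_HFHS arrays differs from their titles, source names and descriptions, and the titles were followed.

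Macrophages live between the fibres of healthy muscle, where they clear debris, and monocytes recruited from blood join them after injury or in obesity. They take up particles through scavenger, lectin and Fc receptors, tag them with complement, and destroy them with lysozyme, an oxidase and lysosomal proteases. Growth and survival of the lineage depend on the colony-stimulating factor receptor, and entry of monocytes on chemokine receptors. Whole muscle was measured, so fewer cells of a type and less RNA per cell cannot be told apart in any value below.

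Every level below is a log2 processed intensity minus the 75th percentile of its array, so 0 is the level of that percentile. Levels are set against each other only within a probe, because different probes bind with different strength. On each array at least 56.7% of spots were well above background, and none was saturated. The SD of log2 signal was lowest on CB1KO_SD replicate 2 (2.89) and highest on CB1KO_HFHS replicate 1 (3.97). The HFHS arrays lay on 1 slide and the SD arrays on another, so effects of diet and of slide cannot be told apart. On both slides WT filled row 1 and CB1KO row 2, so effects of genotype and of slide row cannot be told apart either. Cnr1 averaged -2.44 ± 0.68 in CB1KO_HFHS and -2.30 ± 0.64 in WT_HFHS, and -2.97 ± 0.69 in CB1KO_SD and -2.73 ± 0.72 in WT_SD (SD, n = 4 each). It did not pass in limma (adjusted p = 0.923 on HFHS and 0.932 on SD), and whether its single probe lies inside the deleted part is not known, so it does not check the labels.

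The defining markers were detected in this tissue. The chosen probe stood well above background on all 16 arrays for 24 of the 31 measured members, among them Adgre1, Cd68, Csf1r, Mrc1, Tyrobp and the C1q genes. The others were Cd84 (15 arrays), Cx3cr1 (14), Siglec1 (13), Cd163 and Cybb (11 each), Msr1 (9) and Timd4 (5). The brightest of the 3 Itgam probes, which stood for that gene, lay between 5.28 and 6.03 on every array and had the smallest pooled SD within groups of all members (0.225). It averaged 5.59 over the 16 arrays. The dimmer Itgam probes, each well above background on all 16 arrays, averaged -2.44 and -1.80. Which transcripts each Itgam probe measures is not known, so the level and spread of this gene rest on the choice of probe.

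The genotype comparison on HFHS asks how these genes differ between muscle of CB1KO mice and of their WT littermates on the obesogenic diet. No member passed at an adjusted p under 0.05 in limma, beside 0.249% of all genes, so what follows is a direction and its spread. The fitted difference was above 0 for 30 of 31 members, with a median of 0.99 on the log2 scale, while 31.4% of all genes lay above 0 and their median was -0.14. At an unadjusted p under 0.05, 11 members were higher and 0 lower, beside 3.42% of all genes higher and 5.97% lower. In 9 members every CB1KO_HFHS array read above every WT_HFHS array, which 3.16% of all genes did. These were Itgax, Cd68, Cd84, Fcer1g, Marco, Cd14, Mpeg1, Cybb and Ctss. Without CB1KO_HFHS replicate 1, the array that read highest for most members, 29 of 31 were above 0 and the median was 0.76. With array weights Itgax (1.60, adjusted p = 0.0273) and Fcer1g (1.03, adjusted p = 0.0481) passed, in a fit that called 2124 genes in place of 72.

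**Figure D1:**
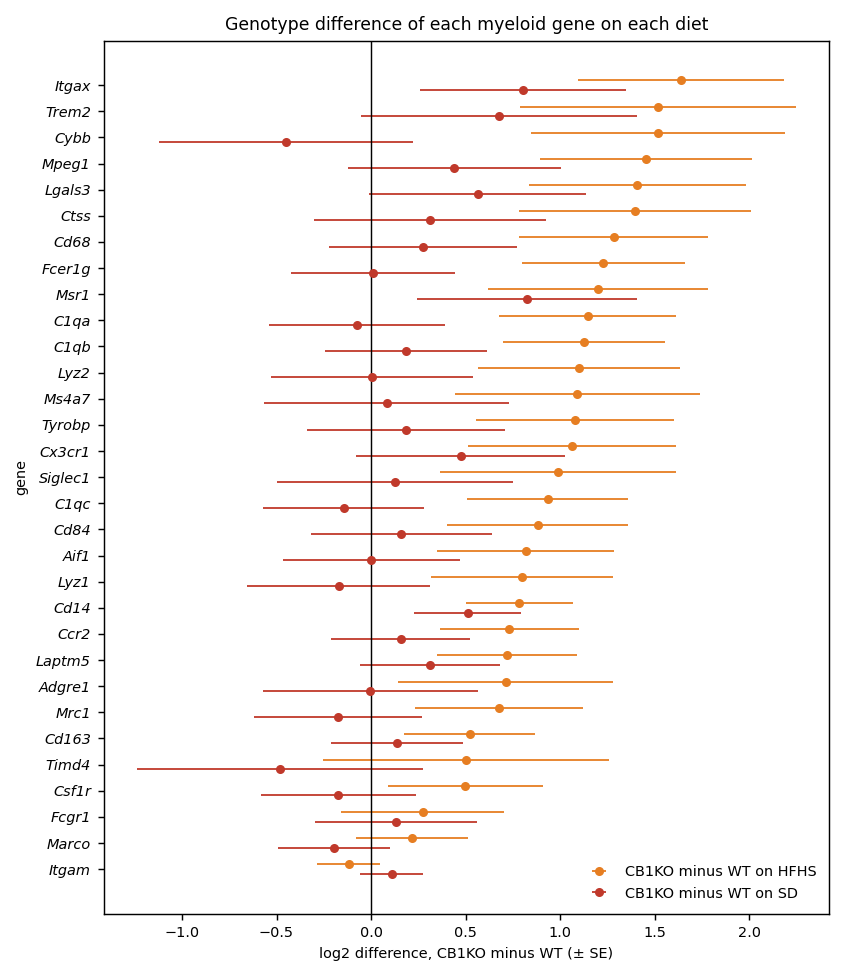
Fitted log2 difference of CB1KO minus WT (x axis, point with SE) for each of the 31 measured genes (y axis), on HFHS (upper point, orange) and on SD (lower point, red). On HFHS 30 of 31 points lie to the right of 0, from -0.12 for Itgam to 1.64 for Itgax. On SD 22 of 31 do, up to 0.83 for Msr1, whose probe was well above background on 2 CB1KO_SD arrays and 1 WT_SD array. The SD point of Timd4 rests on a probe not well above background on any CB1KO_SD array and is not read as a size.

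Among the surface markers, Itgax, the integrin alpha chain of dendritic cells and of macrophages in obese fat tissue, had the largest fitted genotype difference on HFHS. It read -0.10, -1.12, -0.91 and -0.66 on the CB1KO_HFHS arrays, against -1.89, -2.76, -2.32 and -2.40 on the WT_HFHS arrays. On SD it read -0.85, -2.28, -2.47 and -0.69 on the CB1KO_SD arrays, against -3.31, -2.66, -2.96 and -0.59 on the WT_SD arrays. The HFHS groups did not overlap, with a fitted difference of 1.64 ± 0.55 (SE), 3.12-fold, at adjusted p = 0.319, while on SD WT_SD replicate 4 read above every CB1KO_SD array (0.80 ± 0.55). Cd68, a glycoprotein of macrophage lysosomes, read 3.69, 2.49, 2.66 and 2.64 on the CB1KO_HFHS arrays, against 2.41, 1.35, 1.26 and 1.32 on the WT_HFHS arrays. Its SD values were 2.80, 1.61, 1.61 and 2.66 on the CB1KO_SD arrays, against 1.05, 1.66, 1.36 and 3.50 on the WT_SD arrays. The lowest CB1KO_HFHS array lay just above WT_HFHS replicate 1, and the fitted differences were 1.28 ± 0.50 on HFHS (adjusted p = 0.422) and 0.28 ± 0.50 on SD. Adgre1, the adhesion receptor used as the standard mouse macrophage marker, read 1.71, -0.25, 0.32 and -0.31 on the CB1KO_HFHS arrays, against 0.51, -0.58, -0.94 and -0.36 on the WT_HFHS arrays. Its SD arrays read 0.041, -0.98, -1.23 and 0.78 on the CB1KO_SD arrays, against -0.75, -0.42, -1.14 and 0.94 on the WT_SD arrays. Here the groups overlapped on both diets, at 0.71 ± 0.57 on HFHS (adjusted p = 0.728) and -0.0043 ± 0.57 on SD, and only CB1KO_HFHS replicate 1 exceeded the highest WT_HFHS array. A second Adgre1 probe gave 0.90 on HFHS and -0.07 on SD.

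Cd84, an adhesion and signalling receptor of leukocytes, read -1.84, -2.52, -2.72 and -2.10 on the CB1KO_HFHS arrays, against -2.89, -3.47, -2.94 and -3.39 on the WT_HFHS arrays. On SD the values were -2.60, -2.28, -3.90 and -2.46 on the CB1KO_SD arrays, against -3.10, -3.53, -3.89 and -1.35 on the WT_SD arrays. The HFHS groups did not overlap (0.88 ± 0.48, adjusted p = 0.604), but a second Cd84 probe, well above background on all 16 arrays, gave 0.22 there. Itgam, the integrin alpha chain of monocytes, macrophages and neutrophils, read 5.28, 5.93, 5.60 and 5.64 on the CB1KO_HFHS arrays, against 5.43, 6.03, 5.89 and 5.59 on the WT_HFHS arrays. Its SD levels were 5.60, 5.73, 5.57 and 5.32 on the CB1KO_SD arrays, against 5.34, 5.63, 5.54 and 5.28 on the WT_SD arrays. By this brightest probe it was the 1 member below 0 on HFHS (-0.12 ± 0.17, adjusted p = 0.822). Its far dimmer probes gave -0.33 and -0.04. Aif1, a calcium-binding protein of activated macrophages, averaged 1.05 ± 0.76 in CB1KO_HFHS and 0.23 ± 0.50 in WT_HFHS (SD, n = 4 each as in all group means here). Laptm5, a lysosomal membrane protein of blood cells, averaged -0.012 ± 0.48 in CB1KO_HFHS and -0.73 ± 0.44 in WT_HFHS. Ms4a7, a membrane protein of mature macrophages, averaged 0.59 ± 0.73 in CB1KO_HFHS and -0.50 ± 0.60 in WT_HFHS. All 3 lay higher in CB1KO_HFHS, by 0.82 ± 0.47, 0.72 ± 0.37 and 1.09 ± 0.65, with overlapping groups, and their SD differences were 0.0014 ± 0.47, 0.31 ± 0.37 and 0.082 ± 0.65.

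**Figure D2:**
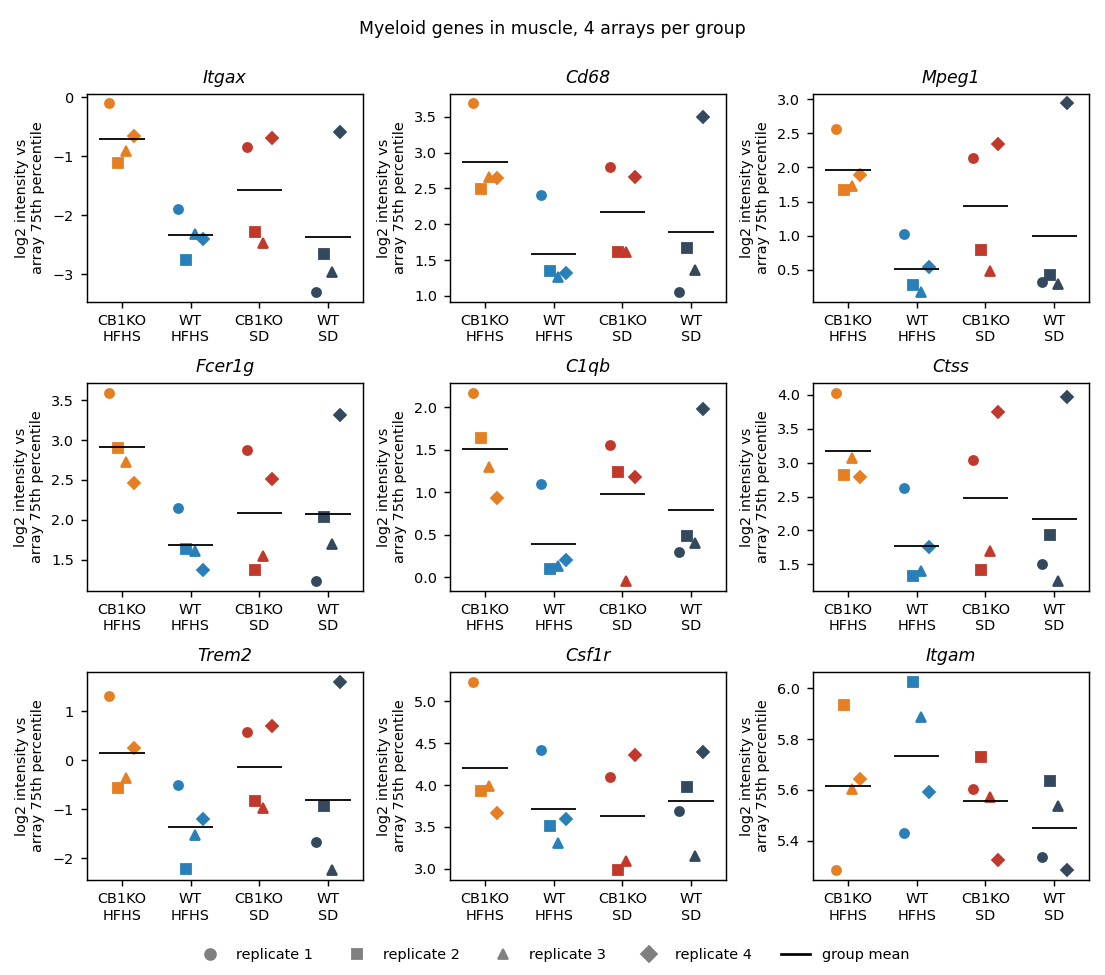
Log2 intensity relative to the array's 75th percentile (y axis) for 9 of the genes on each array, by group (x axis); the marker shape gives the replicate number and the bar the group mean of 4 arrays. Itgax, Cd68, Mpeg1, Fcer1g and Ctss on CB1KO_HFHS arrays lie above all WT_HFHS arrays, WT_SD replicate 4 lies far above the other WT_SD arrays in most panels, and Itgam stays between 5.28 and 6.03.

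The receptors that govern the lineage and its recruitment had overlapping groups on both diets. Csf1r, the receptor for the macrophage growth factor, read 5.24, 3.93, 3.99 and 3.67 on the CB1KO_HFHS arrays, against 4.42, 3.51, 3.31 and 3.59 on the WT_HFHS arrays. Its SD values were 4.09, 2.98, 3.09 and 4.36 on the CB1KO_SD arrays, against 3.69, 3.98, 3.15 and 4.40 on the WT_SD arrays. CB1KO_HFHS replicate 1 alone exceeded the highest WT_HFHS array (0.50 ± 0.41 on HFHS, adjusted p = 0.73, and -0.17 ± 0.41 on SD), and its 2 dimmer probes gave 0.50 and 0.15 on HFHS. Ccr2, the chemokine receptor that lets monocytes leave the marrow and enter tissue, read 0.28, -0.56, -1.15 and -1.48 on the CB1KO_HFHS arrays, against -0.98, -1.38, -1.82 and -1.64 on the WT_HFHS arrays. On SD the levels were -1.12, -1.47, -1.35 and -1.09 on the CB1KO_SD arrays, against -1.80, -1.90, -1.50 and -0.46 on the WT_SD arrays. CB1KO_HFHS replicates 1 and 2 exceeded every WT_HFHS array and the other pair did not (0.73 ± 0.37, adjusted p = 0.577). Cx3cr1, the fractalkine receptor of patrolling monocytes and resident macrophages, read -1.29, -1.61, -1.91 and -2.24 on the CB1KO_HFHS arrays, against -3.45, -3.19, -2.13 and -2.52 on the WT_HFHS arrays. Its SD arrays read -1.49, -2.83, -2.74 and -0.78 on the CB1KO_SD arrays, against -3.85, -2.50, -2.22 and -1.16 on the WT_SD arrays. CB1KO_HFHS replicate 4 lay just below the highest WT_HFHS array (1.06 ± 0.55, adjusted p = 0.587), and a second probe, well above background on 14 arrays, gave 0.97.

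The 3 C1q genes encode the chains of the complement component that recognises antibody and dying cells, and in tissues macrophages are their main source. C1qa read 1.99, 1.32, 1.16 and 0.69 on the CB1KO_HFHS arrays, against 0.94, -0.047, -0.076 and -0.26 on the WT_HFHS arrays. C1qb read 2.17, 1.64, 1.30 and 0.93 on the CB1KO_HFHS arrays, against 1.10, 0.10, 0.13 and 0.21 on the WT_HFHS arrays. C1qc read 3.18, 2.69, 2.65 and 2.39 on the CB1KO_HFHS arrays, against 2.46, 1.67, 1.64 and 1.41 on the WT_HFHS arrays. In each of the 3 a single CB1KO_HFHS array, replicate 4, lay below WT_HFHS replicate 1 and the other CB1KO_HFHS arrays lay above every WT_HFHS array. The fitted differences were 1.15 ± 0.47 for C1qa (adjusted p = 0.449), 1.13 ± 0.43 for C1qb (0.415) and 0.93 ± 0.43 for C1qc (0.517). On SD, C1qa read 1.42, 0.26, -0.48 and 0.79 on the CB1KO_SD arrays, against -0.006, 0.22, 0.23 and 1.84 on the WT_SD arrays. C1qb read 1.55, 1.23, -0.047 and 1.19 on the CB1KO_SD arrays, against 0.30, 0.49, 0.40 and 1.98 on the WT_SD arrays there. The SD values of C1qc were 2.83, 1.45, 0.96 and 2.23 on the CB1KO_SD arrays, against 1.37, 1.79, 1.72 and 3.16 on the WT_SD arrays. In all 3, WT_SD replicate 4 was the highest of the 8 SD arrays, and the fitted SD differences lay between -0.15 and 0.19.

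Fcer1g and Tyrobp encode the small adapters that pair with Fc receptors and with Trem2 and signal inside the cell. Fcer1g read 3.60, 2.89, 2.72 and 2.46 on the CB1KO_HFHS arrays, against 2.15, 1.63, 1.61 and 1.37 on the WT_HFHS arrays. Under SD feeding it read 2.88, 1.38, 1.55 and 2.52 on the CB1KO_SD arrays, against 1.23, 2.04, 1.69 and 3.31 on the WT_SD arrays. Its HFHS groups did not overlap (1.23 ± 0.43, adjusted p = 0.362), while its SD difference was 0.012 ± 0.43. Tyrobp read 3.58, 2.27, 2.45 and 2.02 on the CB1KO_HFHS arrays, against 2.35, 1.30, 0.96 and 1.40 on the WT_HFHS arrays. Its SD arrays read 2.39, 0.81, 1.24 and 2.54 on the CB1KO_SD arrays, against 0.95, 1.48, 0.87 and 2.94 on the WT_SD arrays. WT_HFHS replicate 1 lay above the lower pair of CB1KO_HFHS arrays (1.08 ± 0.52, adjusted p = 0.558). Trem2, a lipid-sensing receptor of macrophages that signals through Tyrobp, read 1.30, -0.57, -0.37 and 0.24 on the CB1KO_HFHS arrays, against -0.52, -2.22, -1.53 and -1.21 on the WT_HFHS arrays. On SD the Trem2 values were 0.57, -0.84, -0.97 and 0.69 on the CB1KO_SD arrays, against -1.67, -0.94, -2.25 and 1.60 on the WT_SD arrays. The CB1KO_HFHS arrays lay above WT_HFHS except for replicate 2, which lay just under WT_HFHS replicate 1 (1.52 ± 0.73, adjusted p = 0.551), and WT_SD spread widest of the groups (SD 1.70). Fcgr1, the high-affinity receptor for IgG, averaged -2.58 ± 0.50 in CB1KO_HFHS and -2.86 ± 0.26 in WT_HFHS, a difference of 0.27 ± 0.43, and was 0.13 ± 0.43 on SD.

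Scavenger and lectin receptors bind modified lipoproteins, sugars and dying cells, and several of them lay near background here. Mrc1, the mannose receptor of resident and alternatively activated macrophages, read 2.89, 1.62, 1.85 and 1.25 on the CB1KO_HFHS arrays, against 2.16, 1.06, 0.44 and 1.26 on the WT_HFHS arrays. On SD it read 1.62, 0.18, 0.68 and 1.88 on the CB1KO_SD arrays, against 1.14, 1.25, 0.91 and 1.77 on the WT_SD arrays. The groups overlapped on both diets (0.68 ± 0.44 on HFHS, adjusted p = 0.673, and -0.17 ± 0.44 on SD). Cd163, the haemoglobin-haptoglobin receptor, read -3.63, -3.63, -4.00 and -2.97 on the CB1KO_HFHS arrays, against -3.64, -4.54, -4.36 and -3.79 on the WT_HFHS arrays. Its SD values were -4.16, -2.86, -4.11 and -4.24 on the CB1KO_SD arrays, against -4.15, -4.39, -4.14 and -3.23 on the WT_SD arrays. It lay near background, with 3 of 4 CB1KO_SD arrays and 2 of 4 WT_SD arrays not well above it, and differed by 0.52 ± 0.35 on HFHS (adjusted p = 0.675). Marco, a scavenger receptor for bacteria and particles, read -2.60, -2.64, -2.62 and -2.67 on the CB1KO_HFHS arrays, against -2.81, -2.72, -2.73 and -3.12 on the WT_HFHS arrays. Its SD levels were -2.81, -1.71, -2.87 and -3.12 on the CB1KO_SD arrays, against -2.02, -2.90, -2.95 and -1.87 on the WT_SD arrays. The HFHS groups did not overlap, but the gap between them was smaller than the range within either SD group, and the fitted difference was 0.22 ± 0.30 (adjusted p = 0.816).

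Lgals3, the galactose-binding galectin secreted by activated macrophages, averaged 3.61 ± 0.77 in CB1KO_HFHS and 2.20 ± 0.72 in WT_HFHS. Its difference was 1.41 ± 0.57 on HFHS (adjusted p = 0.449) and 0.56 ± 0.57 on SD. Msr1, the class A scavenger receptor, averaged -3.51 ± 0.81 in CB1KO_HFHS and -4.71 ± 0.70 in WT_HFHS, a difference of 1.20 ± 0.58, with 2 WT_HFHS arrays not well above background. On SD its probe was well above background on 2 CB1KO_SD arrays and 1 WT_SD array. A second Msr1 probe, well above background on 2 of the 16 arrays, gave 0.34 on HFHS and 0.07 on SD. Siglec1, the sialic acid receptor of tissue-resident macrophages, averaged -2.50 ± 0.72 in CB1KO_HFHS and -3.49 ± 0.83 in WT_HFHS (0.99 ± 0.63), but its dimmer probe gave -0.02. Timd4, a phosphatidylserine receptor of long-lived resident macrophages, was well above background on 2 arrays of each HFHS group, on 1 WT_SD array and on 0 CB1KO_SD arrays, so no fold is given for it. The SD differences of Lgals3, Msr1 and Siglec1 lay between 0.13 for Siglec1 and 0.83 for Msr1, and none of the 4 genes passed on either diet.

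The genes of microbial sensing and killing held 4 of the 9 members whose HFHS groups did not overlap. Cd14, the co-receptor that hands bacterial lipopolysaccharide to the Toll-like receptor complex, read 0.82, 0.17, 0.43 and 0.26 on the CB1KO_HFHS arrays, against -0.095, -0.41, -0.37 and -0.60 on the WT_HFHS arrays. On SD the levels were 0.47, -0.14, -0.081 and 1.09 on the CB1KO_SD arrays, against -0.37, -0.41, -0.45 and 0.53 on the WT_SD arrays. It was higher on both diets (0.79 ± 0.28 on HFHS, adjusted p = 0.377, and 0.51 ± 0.28 on SD, adjusted p = 0.643) and had the smallest spread among these genes. Mpeg1, the pore-forming perforin of macrophages, read 2.57, 1.66, 1.72 and 1.90 on the CB1KO_HFHS arrays, against 1.02, 0.29, 0.18 and 0.55 on the WT_HFHS arrays. Its SD values were 2.14, 0.79, 0.48 and 2.35 on the CB1KO_SD arrays, against 0.32, 0.43, 0.30 and 2.94 on the WT_SD arrays. The fitted HFHS difference was 1.45 ± 0.56 (adjusted p = 0.42), and a dimmer probe, well above background on 14 arrays, gave 0.45. Ctss, the lysosomal protease that trims antigen for display, read 4.03, 2.82, 3.07 and 2.79 on the CB1KO_HFHS arrays, against 2.62, 1.32, 1.41 and 1.76 on the WT_HFHS arrays. Under SD feeding it read 3.04, 1.42, 1.70 and 3.75 on the CB1KO_SD arrays, against 1.50, 1.93, 1.25 and 3.96 on the WT_SD arrays. The HFHS groups lay apart (1.40 ± 0.61, adjusted p = 0.495), and the 8 SD arrays were interleaved.

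Cybb, the membrane subunit of the phagocyte oxidase, read -2.19, -2.36, -2.53 and -2.48 on the CB1KO_HFHS arrays, against -2.98, -3.57, -5.47 and -3.61 on the WT_HFHS arrays. On SD it read -3.25, -4.95, -4.44 and -2.74 on the CB1KO_SD arrays, against -3.97, -4.76, -3.32 and -1.54 on the WT_SD arrays. The CB1KO_HFHS arrays lay close together and the WT_HFHS arrays far apart (-2.39 ± 0.15 in CB1KO_HFHS and -3.91 ± 1.08 in WT_HFHS). The Cybb probe was well above background on 4 CB1KO_HFHS arrays, 3 WT_HFHS arrays and 2 arrays of each SD group. The -5.47 of WT_HFHS replicate 3 lay below the lowest level well above background on that array (-4.62), so the WT_HFHS mean and spread are uncertain. The fitted differences were 1.52 ± 0.67 on HFHS (adjusted p = 0.498) and -0.45 ± 0.67 on SD. Lyz2, the lysozyme of macrophages and neutrophils, read 1.61, 0.62, 0.25 and 0.081 on the CB1KO_HFHS arrays, against 0.15, -0.86, -0.43 and -0.72 on the WT_HFHS arrays. Its SD arrays read 0.89, -0.13, -1.06 and 0.66 on the CB1KO_SD arrays, against -0.54, -0.34, -0.46 and 1.69 on the WT_SD arrays. The difference was 1.10 ± 0.54 on HFHS (adjusted p = 0.558) and 0.005 ± 0.54 on SD. Lyz1, the lysozyme of intestinal Paneth cells, averaged 3.87 ± 0.73 in CB1KO_HFHS and 3.07 ± 0.49 in WT_HFHS, a difference of 0.80 ± 0.48. Because Lyz1 and Lyz2 are near-identical neighbours, the Lyz1 probe may bind transcripts of Lyz2, and its value is uncertain.

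The same genotype comparison on SD asks how the genes differ under ordinary feeding. No member passed, beside 0.00345% of all genes, and 0 members were higher or lower at an unadjusted p under 0.05, beside 2.18% of all genes higher and 6.84% lower. The fitted difference was above 0 for 22 of 31 members, with a median of 0.13, against 32.1% and -0.12 for all genes. In no member did the CB1KO_SD arrays all lie above the WT_SD arrays, which 1.03% of genes did. Cd14 (0.51 ± 0.28) had the smallest p, at adjusted p = 0.643, followed by Itgax (0.80 ± 0.55, 0.735) and Msr1 (0.83 ± 0.58, 0.751). The Msr1 probe was well above background on 2 CB1KO_SD arrays and 1 WT_SD array, and a dimmer Msr1 probe gave 0.07. The SD median shifted most without WT_SD replicate 4, to 0.56 with 28 of 31 members above 0. Without another single SD array it lay between -0.07 and 0.29. It fell below 0 without WT_SD replicate 1 (-0.0045), 2 (-0.0056) or 3 (-0.073), or without CB1KO_SD replicate 1 (-0.0029), so its sign depended on several arrays.

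Averaged over both diets, CB1KO against WT asks for a genotype difference whatever the feeding. No member passed, beside 0.763% of all genes. The fitted difference was above 0 for 30 of 31 members, with a median of 0.54, while 27.9% of all genes lay above 0 and their median was -0.13. Cd14 (0.65 ± 0.20, adjusted p = 0.147) and Itgax (1.22 ± 0.39, adjusted p = 0.159) had the smallest p values. At an unadjusted p under 0.05, 7 members were higher and 0 lower, beside 3.73% of all genes higher and 11.3% lower: these 2 with Msr1 (1.01 ± 0.41), Lgals3 (0.99 ± 0.41), Mpeg1 (0.95 ± 0.40), Cd68 (0.78 ± 0.35) and C1qb (0.66 ± 0.30). Dimmer probes of Msr1 and Mpeg1 gave 0.20 and 0.27 in this comparison. Itgax passed without WT_SD replicate 4 (1.52, adjusted p = 0.0373). Cd14 and Itgax passed with array weights, a fit that called 1977 genes in place of 221.

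The genotype-by-diet interaction asks whether the genotype difference on HFHS exceeds that on SD. No member passed, beside 0% of all genes, and 0 members had an unadjusted p under 0.05 in either direction, beside 2.10% of genes higher and 1.53% lower. The fitted interaction was above 0 for 30 of 31 members, with a median of 0.84, while 48.3% of all genes lay above 0 and their median was -0.01. Cybb had the largest (1.97 ± 0.95), followed by C1qa (1.22 ± 0.66) and Fcer1g (1.22 ± 0.61), and Itgam the lowest (-0.23 ± 0.24), all at adjusted p = 1. The difference between diets in the genotype effect is therefore not shown for any of these genes, and its median was 0.37 without WT_SD replicate 4. The value of Cybb rests on a probe well above background on 2 arrays of each SD group.

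Within genotypes, HFHS against SD asks what the diet did. In CB1KO muscle no member passed, beside 0.0276% of all genes. The fitted difference was above 0 for 30 of 31 members, with a median of 0.58, against 40.6% and -0.07 for all genes. Cybb (1.45 ± 0.67, adjusted p = 0.519) was the 1 member past an unadjusted p of 0.05, beside 5.37% of genes higher and 4.22% lower, and the 1 member whose CB1KO_HFHS arrays all lay above the CB1KO_SD arrays, which 2.48% of genes did. The Cybb probe was well above background on 2 CB1KO_SD arrays. Without CB1KO_HFHS replicate 1 the median was 0.31. In WT muscle 5 of 31 members lay above 0, with a median of -0.20, against 41.0% and -0.06 for all genes, and no member passed, beside 0% of all genes. At an unadjusted p under 0.05 the count in WT was 0 in both directions, beside 2.11% of genes higher and 3.96% lower, and in 0 members did every WT_HFHS array read above every WT_SD array, beside 2.04% of genes. Trem2 (-0.55 ± 0.73) and Lyz2 (-0.55 ± 0.54) were the lowest, and without WT_SD replicate 4 the WT median was 0.20. Each of these differences is also one between slides.

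**Figure D3:**
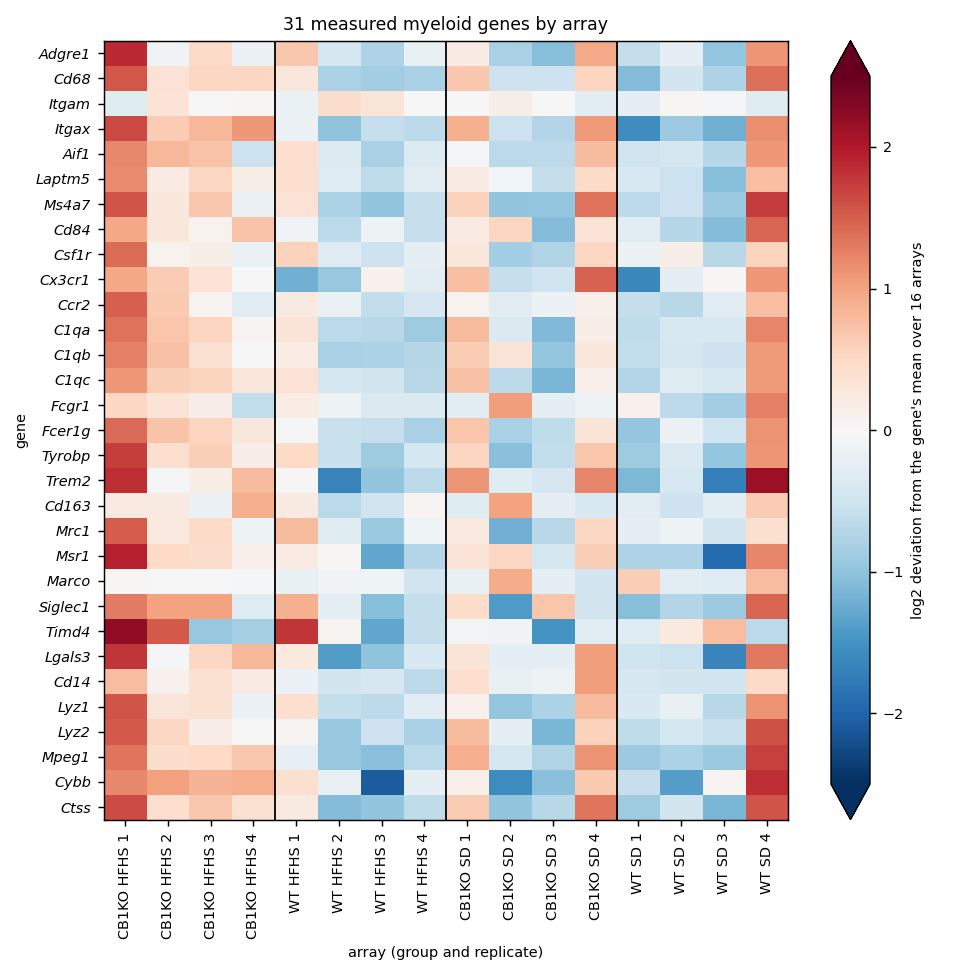
Deviation of each of the 31 genes (rows) on each array (columns, 4 per group) from that gene's mean over all 16 arrays, on the log2 scale (red above, blue below). CB1KO_HFHS replicate 1, WT_SD replicate 4 and, within its group, WT_HFHS replicate 1 are high in most rows, and the row of Itgam is the flattest by its pooled SD within groups (0.225).

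A single array was the highest of its group for nearly all members in WT_SD and in both HFHS groups. In CB1KO_SD, replicates 4 and 1 held most of the highest places and replicates 2 and 3 most of the lowest. WT_SD replicate 4 was the highest WT_SD array for 29 of 31 members, against 39.0% of all genes. CB1KO_HFHS replicate 1 was the highest of its group for 29 (22.1% of all genes), and WT_HFHS replicate 1 for 28 (11.5%). CB1KO_HFHS replicate 1, the array with the largest SD of log2 signal (3.97), was also the lowest of its group for 52.5% of all genes and 1 member. WT_HFHS replicate 1 was the lowest of its group for 33.5% of all genes and 2 members. In CB1KO_SD, replicate 4 was highest for 18 (19.9%), replicate 1 for 7 (16.8%) and replicate 2 for 5 (42.4%). Replicate 2 of CB1KO_SD was lowest for 15 (37.0%) and replicate 3 for 12 (17.6%). The median over members read 1.61, 0.27, 0.43 and 0.081 on the CB1KO_HFHS arrays, against 0.36, -0.58, -0.43 and -0.57 on the WT_HFHS arrays. It read 0.57, -0.17, -0.97 and 0.79 on the CB1KO_SD arrays, against -0.54, -0.41, -0.46 and 1.60 on the WT_SD arrays. The highest WT_SD array therefore read about as high as the highest CB1KO_HFHS array, and WT_HFHS replicate 1 read higher than CB1KO_HFHS replicates 2 and 4. Over the group, these medians averaged 0.60 ± 0.69 in CB1KO_HFHS and -0.30 ± 0.45 in WT_HFHS, and 0.054 ± 0.80 in CB1KO_SD and 0.049 ± 1.04 in WT_SD (SD, n = 4 each). The pooled SD within groups had a median of 0.722 over members, against 0.349 over all genes, and 30 of 31 members lay above that value, from 0.225 for Itgam to 1.14 for Timd4.

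Genes of partners and of related processes were read from further lists, which hold none of the members. The cells that their transcripts came from were not determined. Leukocyte and myeloid signalling partners lay above 0 for 19 of 19 genes on HFHS, with a median of 0.87 and none past the test. Itgb2, the beta chain that pairs with Itgam and Itgax, had 1.18 ± 0.29 (adjusted p = 0.15), Cd52, a leukocyte surface glycopeptide, 1.28 ± 0.35 (0.204) and Syk, the kinase that Fcer1g and Tyrobp recruit, 1.02 ± 0.31 (0.28). The phagocyte oxidase partners had a median of 1.05 with 4 of 4 above 0, among them Rac2 (1.16 ± 0.40, adjusted p = 0.335), Ncf4 (1.09 ± 0.38) and Ncf1 (1.00 ± 0.38). MHC class II genes, which display antigen, had a median of 1.09 with 6 of 7 above 0, led by H2-Aa (1.36 ± 0.38, adjusted p = 0.214), Cd74 (1.22 ± 0.36) and H2-Eb1 (1.14 ± 0.37). Dendritic cell genes had 0.71 (6 of 8 above 0, with Flt3 at 0.91 ± 0.27), monocyte chemokines 0.65 (6 of 7, with Ccl8 at 1.81 ± 0.83), and lipid-associated macrophage genes 0.47 (7 of 10, with Apoe at 0.77 ± 0.36). The lowest single gene was at -0.68 in the MHC class II list, -0.68 in the dendritic cell list and -0.64 in the lipid-associated list. Myeloid transcription and growth factors had 0.39 (10 of 12, with Runx1 at 1.00 ± 0.27), resident-type macrophage genes 0.34 (9 of 12, with Folr2 at 0.98 ± 0.48), and complement beside C1q 0.29 (11 of 14, with C5ar1 at 0.83 ± 0.33). Lower medians were those of the Toll-like receptor partners (0.18, 7 of 10, with Ly96 at 0.70 ± 0.19) and lysosomal genes (0.11, 11 of 15, with Lgmn at 0.91 ± 0.27). Genes of alternative activation (-0.0069, 3 of 7 above 0) and of pro-inflammatory activation (-0.15, 3 of 9) had medians near that of all genes, -0.14. Single genes ran from -0.83 to 0.97 in the alternative list and from -1.14 to 0.70 in the pro-inflammatory list. No gene of these lists passed on HFHS.

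Lists of other cell types were read on the same comparison, where the median of all genes was -0.14 and 31.4% of all genes lay above 0. Neutrophil genes had a median difference of 0.031 on HFHS with 5 of 10 above 0, red blood cell genes 0.12 with 3 of 4, and mast cell genes 0.34 with 6 of 6. T and B lymphocyte genes had 0.12 with 8 of 11, and Cd28, which co-stimulates T cells, was the 1 gene of all these lists to pass, lower by -2.26 ± 0.31 (adjusted p = 0.00861). Fibroblast genes had 0.21 with 7 of 9 above 0, adipocyte genes 0.26 with 6 of 8, and satellite cell genes 0.056 with 3 of 5. Endothelial genes had -0.17 with 1 of 8, muscle fibre genes -0.09 with 2 of 12, and smooth muscle and pericyte genes -0.48 with 0 of 7. Single muscle fibre genes ran from -2.48 to 1.01. By array, the fibroblast median read 5.50, 4.38, 4.57 and 3.81 on the CB1KO_HFHS arrays, against 5.07, 3.96, 3.85 and 4.57 on the WT_HFHS arrays. It was highest on the 2 HFHS arrays that led their groups for the myeloid genes, and its groups overlapped. On SD the fibroblast median read 4.66, 3.50, 3.27 and 4.68 on the CB1KO_SD arrays, against 3.77, 4.06, 3.58 and 4.32 on the WT_SD arrays. There too WT_SD replicate 4 was the highest of its group, as for the myeloid genes. The adipocyte median read 1.67, 0.75, -1.32 and 1.04 on the CB1KO_SD arrays, against 1.13, 1.37, 2.73 and -1.18 on the WT_SD arrays. WT_SD replicate 4, the highest WT_SD array for the myeloid genes, was the lowest of its group for the adipocyte genes. On HFHS the adipocyte median read 2.79, 1.40, 1.47 and 2.10 on the CB1KO_HFHS arrays, against 1.83, 1.98, 1.18 and 1.63 on the WT_HFHS arrays. CB1KO_HFHS replicate 1 was thus the highest of its group for both the myeloid and the adipocyte genes. The part of other cells in the myeloid differences was not tested.

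**Figure D4:**
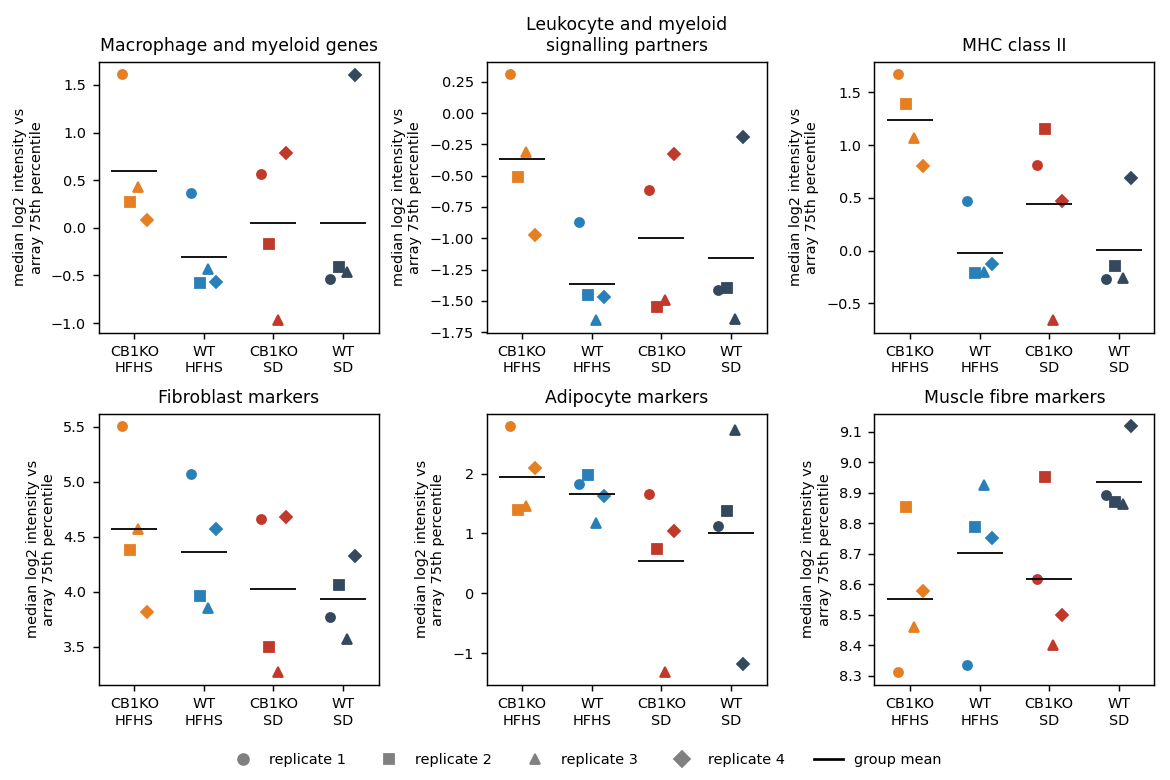
Median log2 intensity relative to the array's 75th percentile (y axis) of 6 gene lists on each array, by group (x axis); the marker shape gives the replicate number and the bar the group mean of 4 arrays. For the signalling partners and the MHC class II genes, as for the myeloid genes, CB1KO_HFHS replicate 1 and WT_SD replicate 4 are the highest arrays of their groups, but the MHC class II median of WT_SD replicate 4 (0.69) lies below all 4 CB1KO_HFHS arrays (0.80 to 1.67). The muscle fibre median stays between 8.31 and 9.12. Single genes of that list had fitted CB1KO against WT differences from -2.48 to 1.01 on HFHS and from -0.50 to 4.04 on SD.

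As given above, a single array was the highest of its group for nearly all members in WT_SD and in both HFHS groups. The stretches upstream of the members' start sites were therefore read for the purine-rich core that the myeloid transcription factor Spi1 binds. Of the 32 members, 25 had a promoter entry in RefSeq (GRCm38.p6), with 27 windows of the 250 bases before the annotated start. The letters GAGGAA, on either strand, occurred in 13 of the 27 windows (48.15%), against 7639 of 32851 windows of all genes (23.25%). The longer GAGGAAGT, which contains them, occurred in 1 of the 27 (3.704%), against 2.441% of all windows. Counted by gene, GAGGAA occurred in 12 of the 25 members, against 25.85% of all genes. Clec7a, which had no matched probe, is among these members, with overlapping windows that each hold GAGGAA. Shown 5′ to 3′ on the gene's strand, with GAGGAA or its reverse complement in capitals, are the windows of 4 of the 7 members with an unadjusted p under 0.05 averaged over diets, and of C1qc, which was added after the search because it alone holds the longer motif.
Itgax (GRCm38.p6 chr7:128129300-128129549, plus strand): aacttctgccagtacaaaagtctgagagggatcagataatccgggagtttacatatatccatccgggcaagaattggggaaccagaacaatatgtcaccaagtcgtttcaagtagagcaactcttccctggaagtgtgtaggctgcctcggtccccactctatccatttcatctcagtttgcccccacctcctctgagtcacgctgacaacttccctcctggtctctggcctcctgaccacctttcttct
Lgals3 (GRCm38.p6 chr14:47373610-47373859, plus strand): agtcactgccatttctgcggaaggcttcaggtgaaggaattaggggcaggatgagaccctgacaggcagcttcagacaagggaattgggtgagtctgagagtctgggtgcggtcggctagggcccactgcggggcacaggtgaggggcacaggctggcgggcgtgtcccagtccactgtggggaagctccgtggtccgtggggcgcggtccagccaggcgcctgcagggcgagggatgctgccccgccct
Mpeg1 (GRCm38.p6 chr19:12460520-12460769, plus strand): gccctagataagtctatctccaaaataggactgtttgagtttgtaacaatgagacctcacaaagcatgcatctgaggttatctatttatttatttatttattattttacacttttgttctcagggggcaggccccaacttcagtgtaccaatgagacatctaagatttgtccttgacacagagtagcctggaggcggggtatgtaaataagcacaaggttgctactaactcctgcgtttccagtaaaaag
Cd68 (GRCm38.p6 chr11:69666171-69666420, minus strand): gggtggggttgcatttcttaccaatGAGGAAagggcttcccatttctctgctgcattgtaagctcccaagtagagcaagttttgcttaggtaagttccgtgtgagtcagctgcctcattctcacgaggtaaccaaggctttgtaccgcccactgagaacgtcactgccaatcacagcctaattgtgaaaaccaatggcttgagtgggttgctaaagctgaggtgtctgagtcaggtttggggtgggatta
C1qc (GRCm38.p6 chr4:136892915-136893164, minus strand): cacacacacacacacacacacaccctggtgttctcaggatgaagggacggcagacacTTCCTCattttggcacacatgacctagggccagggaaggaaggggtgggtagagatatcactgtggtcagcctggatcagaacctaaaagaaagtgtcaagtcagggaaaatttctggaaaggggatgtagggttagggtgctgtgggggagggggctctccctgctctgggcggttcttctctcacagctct
The Cd68 match begins at position -225 relative to the start and that of C1qc at -193. Itgax, Lgals3 and Mpeg1 have no match in their windows. C1qb, also among the 7 members, has a GAGGAA match in a window not shown. Matches were not set against the size of the differences. A match here is a string of letters, and binding was not measured.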

How the data were processed

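The scanner files were deposited as Feature Extraction 11.5.1.1 wrote them, per the file headers, and give the authors' processed intensity of each spot, which is corrected for local background but has no scaling across arrays. In the deposited series table each spot has a score. Checked against the scanner files, that score was the array's log2 processed intensity less the array mean, divided by the array SD, to within 0.00502.

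Here each array's 75th percentile was subtracted from its log2 intensities. Spots flagged as outliers (0.299%) were set missing and replicate spots averaged. A probe had to be well above background on 4 or more of 16 arrays, and the brightest probe represented its gene (28972 genes). Of 55681 probes, 28026 took a symbol from a RefSeq table through their accession. One mean per group was fitted with limma 3.58.1 in R 4.3.3 (lmFit, eBayes). Tests were two-sided, with Benjamini-Hochberg adjustment across all genes and a threshold of 0.05. The code was tested on simulated data. Groups came from the sample titles. P-values measure the spread between these arrays, and 4 per group limits the precision of every value.

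Per-array values are given for members that define macrophages and monocytes and for those whose genotype groups did not overlap, and other members by means and counts. From lists of other genes up to 3 with the smallest p are named, and some lists are given by medians and counts only. Members, lists and rules were chosen with earlier results of these data known, so no list was tested. Alternatives covered background correction, normalization, the filter, outlier spots, probes per gene, the variance model, array weights, blocks, signal spread and each array left out. No protein sequences were used.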

Additional observations from a re-analysis of the deposited data

Results flagged for a closer look

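For each of the 31 measured genes and for their median, the 4 arrays of each group were searched for one that stood far from the other 3 relative to the range of the group. Of 128 such sets of 4, 16 held an array past the limit of Dixon's test, which chance alone does in about 1 of 20 sets. The sets are not independent, since the genes share arrays. WT_SD replicate 4 accounted for 9 of the 16, all on the high side: Aif1 at 1.58, Ms4a7 at 1.76, C1qa at 1.84, C1qb at 1.98, Siglec1 at -1.79, Cd14 at 0.53, Lyz2 at 1.69, Mpeg1 at 2.94 and the median over the genes at 1.60. WT_HFHS replicate 1 stood above its group for Cd68 (2.41), C1qb (1.10) and the median (0.36). CB1KO_HFHS replicate 1 stood above its group for Cd68 (3.69). On CB1KO_SD replicate 2, the array with the lowest SD of log2 signal, Fcgr1 (-1.64) and Cd163 (-2.86) stood high, and Cd163 was not well above background there. On CB1KO_SD replicate 3, Timd4 (-6.18) stood low, on a probe not well above background on any CB1KO_SD array.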

How the results depend on the processing

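The median over the genes moved by less than the spread between replicates under every alternative. When each array was left out in turn it lay between 0.76 and 1.22 for CB1KO against WT on HFHS, -0.073 and 0.56 on SD, and 0.42 and 0.79 averaged over diets. It lay between 0.37 and 1.14 for the interaction, 0.31 and 0.83 for HFHS against SD in CB1KO, and -0.35 and 0.20 in WT. The count of genes past the threshold was 0 under all alternatives except 2 with array weights averaged over diets (Cd14 at 0.70, Itgax at 1.36), 2 with array weights on HFHS (Itgax, Fcer1g), and 1 without WT_SD replicate 4 averaged over diets (Itgax), so that count ran from 0 to 1 with arrays left out. The cause was not tested. With the replicate block the count was 0 in all 6 comparisons and the medians were the same. Replicate numbers did not pair the arrays: deviations of same-numbered arrays correlated between -0.754 and 0.609, and 5 of 16 arrays correlated best with their own number. The count of all genes called averaged over diets was 59 with that block against 221. The median of all genes on HFHS lay at -0.14 with 75th percentile scaling and -0.036 with quantile normalization, and 30 of 31 members were above 0 under both.

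Of 1905 values of single genes under alternatives, 67 changed sign. Averaged over diets, Itgam (-0.0042) turned to 0.11 with normexp, 0.10 with quantile normalization, 0.052 on the deposited scores, 0.0098 with signal spread as a covariate and 0.022 without both arrays of unusual spread. Marco turned to -0.066 with array weights and -0.15 without those 2 arrays. On SD, array weights and leaving out those 2 arrays turned Adgre1 (0.37 and 0.21), Csf1r (0.16 and 0.043), Cd163 (-0.062 and -0.19) and Mrc1 (0.13 and 0.13). Leaving them out also turned C1qa (0.0048) and Cd84 (-0.017). Normexp turned Lyz2 (-0.038) and Ccr2 (-0.058), quantile normalization Lyz2 (-0.0099), the covariate Fcer1g (-0.0044) and the mean of probes Itgam (-0.12). With each array left out, values that changed sign on SD ran from -0.38 to 0.42 for Adgre1, -0.38 to 0.35 for C1qa, -0.0029 to 0.58 for C1qb, -0.47 to 0.24 for C1qc, -0.0056 to 0.48 for Ccr2, -0.19 to 0.39 for Cd163, -0.0045 to 0.81 for Cd68, -0.15 to 0.70 for Cd84, -0.42 to 0.043 for Csf1r, -0.11 to 0.91 for Ctss, -0.90 to 0.17 for Cybb, -0.27 to 0.43 for Fcer1g, -0.26 to 0.54 for Lyz2, -0.44 to 0.13 for Mrc1 and -0.084 to 0.64 for Tyrobp. Averaged over diets they ran from -0.0092 to 0.28 for Csf1r, -0.057 to 0.051 for Itgam and -0.14 to 0.11 for Marco. On HFHS no value changed sign among the genes given array by array, the ones followed under these alternatives. Over all 31 genes the number above 0 on HFHS was 29 with array weights, without CB1KO_HFHS replicate 1 and without both arrays of unusual spread, in place of 30. Signal near background limits Cd163, Cybb, Msr1, Siglec1 and Timd4.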

Other observations

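Among the chemokines that draw monocytes, Ccl7 and Ccl2, both ligands of Ccr2, had fitted differences of 1.56 ± 0.42 (SE, limma adjusted p = 0.104) and 1.05 ± 0.36 (adjusted p = 0.195) in CB1KO against WT averaged over diets. Ly96, the partner of Cd14 in the lipopolysaccharide receptor, had 0.53 ± 0.14 (adjusted p = 0.0909). None of these passed. Between diets, and so between slides, MHC class II genes had a median difference of 1.29 for HFHS against SD in CB1KO and 0.087 in WT, and adipocyte genes 1.71 in CB1KO and 0.47 in WT. No gene of either list passed within a genotype or in the genotype-by-diet interaction. That interaction had a median of 1.15 for the MHC class II genes and 1.07 for the adipocyte genes, and neither list was tested as a set.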
